A study of Caenorhabditis elegans with 2 samples.

Results

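This account covers 212 JUN-1 binding sites on the X chromosome of Caenorhabditis elegans that lie in the promoters of protein-coding genes, out of 2305 sites in the whole list. A site was taken when its summit, the point of highest enrichment, fell between 1000 bp upstream and 200 bp downstream of the annotated start of at least 1 protein-coding gene. The other sites were 1066 in autosomal promoters, 238 on X outside promoters and 789 on autosomes outside promoters. The rule used position alone, and no signal value.

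The sites come from sequencing of immunoprecipitated chromatin (ChIP-seq). JUN-1 was the target, in intact L1 larvae, the first larval stage, of both sexes, with 2 biological replicates that form the only group. The larvae were of strain OP234, which carries the mutation unc-119(ed3) III and the transgene wgIs234, the source of an eGFP-tagged JUN-1. The binding is therefore that of a tagged protein from a transgene, averaged over all cells of the animal. There is no untagged or untreated group among the samples, and the control library of the study was not analysed here. No second condition exists, so nothing was tested over samples: the sites are described by counts, medians and the values of both replicates. The signal of a site is the authors' own enrichment value, and it ranks sites within a list only. The read depth is unknown.

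JUN-1 is the worm Jun protein, a basic leucine zipper (bZIP) factor that works in pairs with other bZIP proteins such as FOS-1. In animals generally, such AP-1 pairs bind the short AP-1 element and the related cAMP response element (CRE), and they are known for roles in stress responses, growth and development. The worm X chromosome carries many genes for neurons, muscle and other body tissues and few germline genes. In hermaphrodites a dosage compensation complex, recruited by the protein SDC-2, lowers expression from both X chromosomes.

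Stretches of sequence from 14 of the sites, most of them cut around words found within 100 bp of the summit, show the letters behind the shares given later. Those of dyn-1, dhs-25, hsp-3, vha-15, dpy-22 and eef-1A.2 do not reach the summit itself. All are read from the plus strand of the RefSeq copy of WBcel235 (the ce11 assembly), 5′ to 3′, and none overlaps an annotated exon. The first is the strongest site, at X:1454557-1454625 upstream of cebp-1, where capitals mark an AP-1 element (TGACTCA, here on the other strand as TGAGTCA) between 2 copies of CTGCGTCTC, a recurrent worm promoter element, in opposite orientation. The centre of the AP-1 element lay 4 bp from the summit, and those of the flanking copies 13 bp to its left and 23 bp to its right.
cebp-1: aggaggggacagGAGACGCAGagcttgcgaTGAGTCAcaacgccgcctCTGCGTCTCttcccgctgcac

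The next 5 are sites with an AP-1 element or the CRE element TGACGTCA, marked by capitals. They lie at X:871201-871257 (lgl-1), X:15568517-15568573 (dyn-1), X:11047298-11047354 (clc-1), X:9441687-9441744 (memb-1) and X:1486408-1486465 (the promoter shared by dhs-25, D1005.10 and D1005.4). The first 3 carry the AP-1 element and the last 2 the CRE element, which reads the same on both strands.
lgl-1: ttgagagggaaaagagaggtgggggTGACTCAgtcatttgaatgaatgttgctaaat
dyn-1: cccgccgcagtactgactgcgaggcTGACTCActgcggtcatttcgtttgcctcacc
clc-1: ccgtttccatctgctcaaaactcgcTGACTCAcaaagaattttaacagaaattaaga
memb-1: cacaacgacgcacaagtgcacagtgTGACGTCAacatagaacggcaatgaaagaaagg
dhs-25: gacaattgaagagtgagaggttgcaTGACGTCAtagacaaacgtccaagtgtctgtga

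A further 6 sites show 2 words that were commoner under these summits than beside them, CTGCGTCTC (on the other strand GAGACGCAG) and the GA repeat GAGAGAGA (TCTCTCTC), again in capitals. They lie at X:6092128-6092186 (hsp-3), X:4469443-4469501 (asb-2), X:16612692-16612781 (ain-1, the weaker of its 2 sites), X:2237596-2237666 (vha-15), X:9822821-9822863 (dpy-22) and X:7823237-7823284 (eef-1A.2). The sites of hsp-3 and asb-2 hold the first word alone and that of eef-1A.2 the GA repeat alone. In the dpy-22 promoter both words overlap, so that 1 run of capitals holds them.
hsp-3: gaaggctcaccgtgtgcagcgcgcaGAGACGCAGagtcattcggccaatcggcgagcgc
asb-2: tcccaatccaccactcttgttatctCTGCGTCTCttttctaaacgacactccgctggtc
ain-1: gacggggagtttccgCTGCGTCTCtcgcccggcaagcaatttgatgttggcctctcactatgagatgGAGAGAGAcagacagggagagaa
vha-15: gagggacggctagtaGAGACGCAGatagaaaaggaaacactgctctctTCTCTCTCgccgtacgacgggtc
dpy-22: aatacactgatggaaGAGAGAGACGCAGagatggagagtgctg
eef-1A.2: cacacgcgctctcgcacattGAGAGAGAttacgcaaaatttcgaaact

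The last 2 are strong sites that hold none of these 4 words in the 200 bp window around the summit. They lie at X:14525855-14525955 (nspc-17) and X:1344989-1345089 (ins-39), with the summit in the middle of each. Nothing is capitalised in them.
nspc-17: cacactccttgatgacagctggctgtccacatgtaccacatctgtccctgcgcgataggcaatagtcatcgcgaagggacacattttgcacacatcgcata
ins-39: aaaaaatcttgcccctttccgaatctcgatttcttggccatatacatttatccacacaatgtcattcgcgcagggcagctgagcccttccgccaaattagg

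The strongest sites belonged to genes of varied function, among them regulators of transcription, RNA and translation. The first lay 718 bp upstream of cebp-1, which codes for a bZIP factor of the C/EBP type (peak X:1454463-1454765). Its signal was 393 in the IDR-thresholded list, with 209 in replicate 1 and 186 in replicate 2. That list was made from both replicates, but some of its sites rank far apart in them. The cebp-1 site ranked 6 among all 2305 sites, 10 in the list of replicate 1 and 3 in that of replicate 2. Next came nspc-17, a member of a nematode-specific peptide family, with 363 (225 in replicate 1 and 139 in replicate 2) at X:14525733-14526094. The site of puf-9, a Pumilio-type RNA-binding protein, had 304 (186 and 116 in replicates 1 and 2), 287 bp upstream at X:5841195-5841389. That of ins-39, an insulin-like peptide gene, had 296 (189 and 106), and that of the F-box gene fbxb-58 had 268 (154 and 117). A sixth site above 200, at serp-1.1, had 202, with 89.6 in replicate 1 and 111 in replicate 2. The first 5 of these were higher in replicate 1 and the sixth in replicate 2, each on the scale of its own list, in which the medians over the sites were 25.2 in replicate 1 and 20.1 in replicate 2. Signals above 200 were found at 6 of the 212 sites (2.83%), against 22 of the autosomal promoter sites (2.06%) and 14 of the X sites outside promoters (5.88%).

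The sites ranked 7 to 12 included nipi-3, a Tribbles-type pseudokinase gene that is known to restrain cebp-1 in this animal. Its main site, 271 bp upstream at X:15607526-15607869, had a signal of 196, with 113 in replicate 1 and 84.2 in replicate 2. Both cebp-1 and nipi-3 thus stood among the strongest promoter sites of the X chromosome. The translation elongation factor gene eef-1A.2 had 180 (101 and 77.6 in replicates 1 and 2) and the ribosomal protein gene rpl-11.2 had 178 (105 and 72.2). Their summits lay 366 and 356 bp upstream. ain-1, which codes for a GW182-type protein of the microRNA silencing complex, had 174 (93.6 and 82.0). hsp-3, a BiP-type chaperone gene of the endoplasmic reticulum, had 171 (76.7 and 93.3) with its summit only 63 bp upstream, at X:6092015-6092358. zfp-3 had 165 (91.1 and 73.3).

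**Figure D1:**
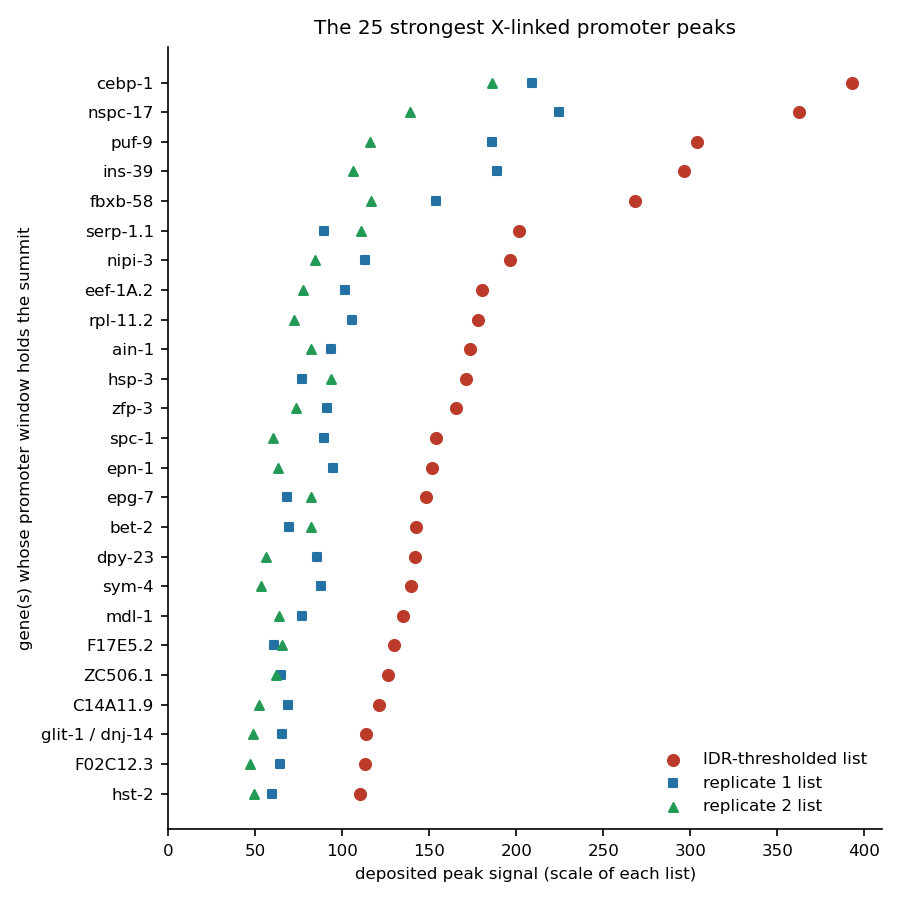
Deposited signal (horizontal axis, scale of each list) of the 25 strongest X-linked promoter sites, named by gene down the page, in the IDR-thresholded list (circles), the list of replicate 1 (squares) and that of replicate 2 (triangles). The signal falls to 110 at hst-2, against 393 at cebp-1, and the replicates change order from site to site.

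The next sites included genes of membranes and the cell cortex. spc-1, the alpha spectrin gene, had 154 (89.5 in replicate 1 and 60.1 in replicate 2). epn-1, an epsin of endocytosis, had 152 (94.8 and 62.8), and dpy-23, a subunit of the AP2 clathrin adaptor, had 142 (85.4 and 56.2). The autophagy scaffold gene epg-7 had 148 (68.2 and 82.1) and the bromodomain gene bet-2 had 143 (69.3 and 81.7). mdl-1, a Mad-like bHLH transcription factor, had 135 (76.6 and 63.6). The rest of the 25 strongest were sym-4 (140), F17E5.2 (130), ZC506.1 (126), C14A11.9 (121), the promoter between glit-1 and dnj-14 (114), F02C12.3 (113) and hst-2 (110), a heparan sulfate sulfotransferase gene.

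At the other end, the 5 weakest sites lay at phf-34, F54B11.5, the promoter shared by gst-42 and D1053.2, lbp-3 and atg-16.1, with signals of 28.5 to 28.7. The lowest signal in the whole list was 28.4, so these sit at the edge of what the IDR threshold kept. The median over the 212 sites was 43.4 (quartiles 33.5 and 68.8), against 46.9 (36.2 and 73.1) for autosomal promoter sites, 45.2 (35.3 and 76.4) for X sites outside promoters and 44.7 for all sites. The difference was -3.56 from autosomal promoter sites and -1.87 from X sites outside promoters. Both are small beside the spread between sites. In replicate 2 alone both changed sign, to 0.391 and 0.518 on the scale of its own list. Among the stronger 50% of sites the first was 2.14, but that list is cut on the same signal and cannot decide a direction. It held 101 of the 212 sites (47.6%), 585 autosomal promoter sites (54.9%) and 121 X sites outside promoters (50.8%). No direction is given, and the differences were not tested. Signals above 100 were found at 28 sites (13.2%), 148 autosomal promoter sites (13.9%) and 33 X sites outside promoters (13.9%).

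**Figure D2:**
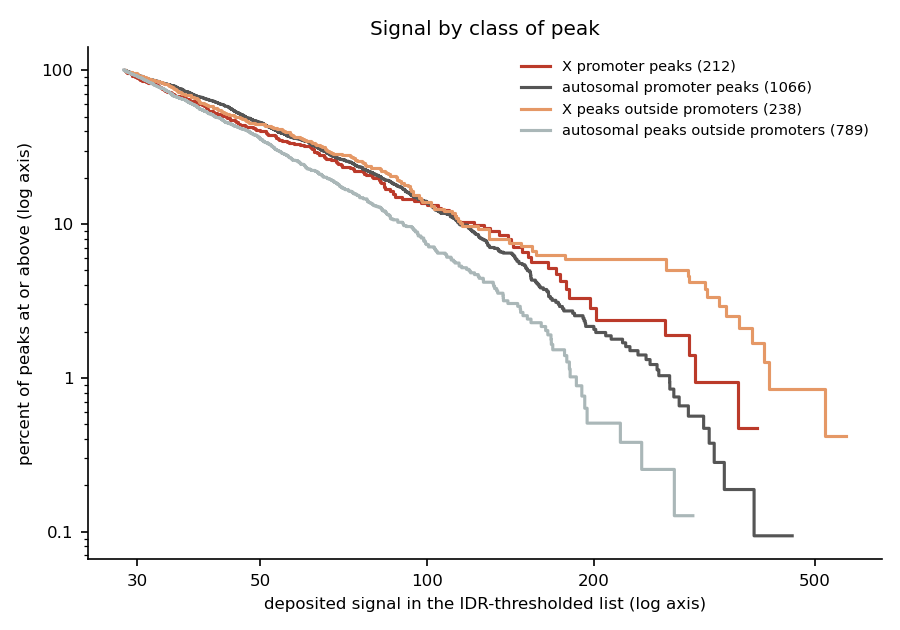
Percent of sites (vertical log axis) at or above each deposited signal (horizontal log axis) for the 4 classes of sites, with the number of sites in the legend. The X promoter curve runs close to that of autosomal promoters and ends at 393; the X sites outside promoters reach 569 and the autosomal ones 301.

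The list was built from both replicates, whose own lists include background and hold 28101 and 30000 peaks. Overlap with them was therefore nearly given in advance. Of the 212, 211 were overlapped by a peak in each replicate list, against 2293 of all 2305 sites. The exception was ZK154.6 (signal 29.04), for which no peak of replicate 2 was found. Among the strongest 2305 peaks of both replicates, 146 of the sites were found (68.9%), against 782 autosomal promoter sites (73.4%), 178 X sites outside promoters (74.8%) and 70.2% of all sites. Replicate 1 alone had 181 of the 212 among its strongest 2305 and replicate 2 had 173, against 2008 and 1881 of all 2305 sites. Only 4 were in neither, against 35 of all sites. Across the 211 sites the signals of the replicates had a Spearman rho of 0.580 and a Pearson r of 0.658 on a log scale, against 0.646 and 0.705 across autosomal promoter sites. These correlations are across sites that share both libraries and 1 control, and they describe only sites kept in a list made from both replicates.

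Some sites leaned heavily on 1 replicate. sec-16A.2 had 24.1 in replicate 1 (rank 1353) and 3.96 in replicate 2 (rank 21050). coel-1 had 30.1 (rank 922) and 4.06 (rank 20435), and F48F7.6 had 23.9 (rank 1376) and 4.64 (rank 16240). The opposite held for spat-3, with 4.65 in replicate 1 (rank 20885) and 30.9 in replicate 2 (rank 524). lev-9 and mom-1, which share a promoter, had 4.57 (rank 21431) and 16.8 (rank 1468), and the promoter of cdk-4 and F18H3.1 had 7.16 (rank 9668) and 24.1 (rank 831). The lists of both replicates include background, so the lower ranks may not mark binding in that replicate. All 6 sites had signals below 40 in the IDR-thresholded list.

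**Figure D3:**
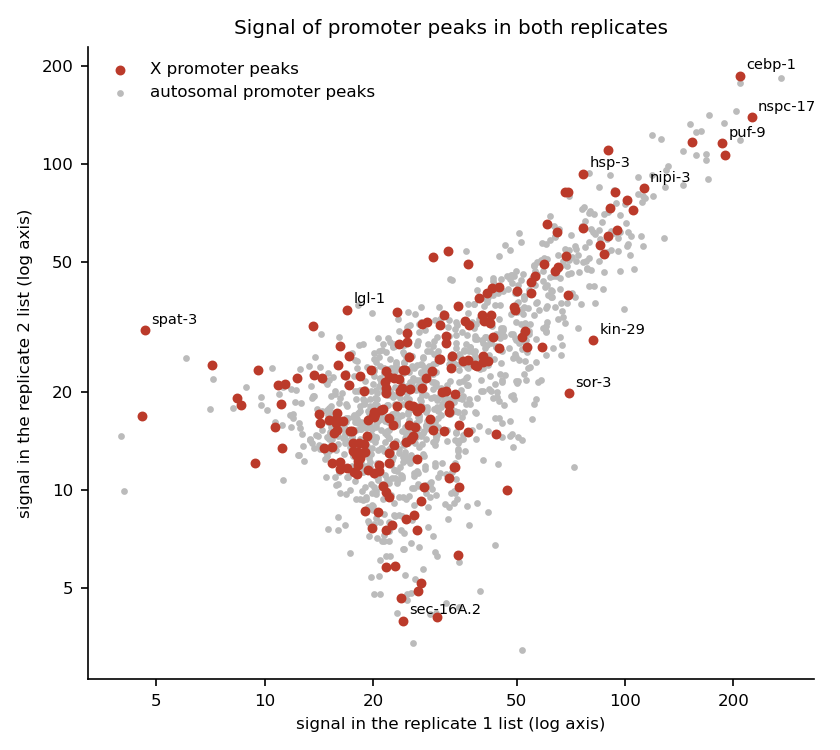
Signal of each promoter site in the list of replicate 1 (horizontal log axis) and of replicate 2 (vertical log axis), with X sites in red and autosomal sites in grey. The strong sites, such as cebp-1 with 209 and 186, lie in a narrow band, while spat-3 (4.65 and 30.9) and sec-16A.2 (24.1 and 3.96) lie far from it.

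The 212 sites put a JUN-1 peak in the promoters of 228 of 2731 X-linked protein-coding genes (8.35%, 95% Wilson interval 7.37% to 9.45%), against 8.42% of all protein-coding genes. The share on X is thus close to the background of the genome. Such intervals cover counting error only, since genes that share a peak are not independent. Of the X-linked genes with a gene-class name 153 of 1344 (11.4%) carried a site, and of those with a sequence name alone 75 of 1387 (5.41%), a difference that was not tested. The sites were spread along the chromosome. The left, middle and right parts of X, of equal length, held 69, 71 and 72 of them, with 74 of 871 genes bound (8.50%), 78 of 976 (7.99%) and 76 of 884 (8.60%). Neighbouring summits were a median of 58478 bp apart, and the widest gap was 428819 bp.

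Many more peaks had been called before the threshold, and the signals of those not kept were not examined. The pooled list, called on both replicates together and including background, held 1064 X promoter peaks, and the IDR-thresholded list kept 212 of them (19.9%, interval 17.6% to 22.4%). It kept 1066 of 5285 autosomal promoter peaks (20.2%), 238 of 3002 X peaks outside promoters (7.93%) and 11.7% of all pooled peaks. In the pooled list 1004 of the 2731 X-linked genes had a promoter peak.

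Of the 228 genes 4 had 2 sites each. ain-1 had its stronger site 952 bp upstream (signal 174) and a second 745 bp upstream with 68.6 (42.3 in replicate 1 and 32.4 in replicate 2). These 2 summits, 207 bp apart, were the closest pair of all. bet-2 had 143 at 392 bp upstream and 40.3 (13.6 and 31.9) at 181 bp. For nipi-3 the second site, 903 bp upstream with 52.9 (33.8 and 19.6), also lay 431 bp upstream of the small GTPase gene rab-14 on the other strand. The 2 sites of ftt-2, a 14-3-3 protein gene, were alike in the IDR-thresholded list, with 36.3 at 909 bp and 36.6 at 441 bp, but not in the replicates, where the first had 16.2 and 27.7 and the second 34.7 and 10.2.

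X promoter sites lay farther from gene starts than autosomal ones. The median summit was 258 bp upstream (quartiles 455.5 and 124.5 bp), against 193 bp (348 and 102 bp) at autosomal promoters. Annotated starts in worms are often the sites of trans-splicing, so they can lie downstream of the true start of transcription. Within 400 bp upstream lay 131 of the sites (61.8%), against 793 of the autosomal ones (74.4%), and 15 (7.08%) against 54 (5.07%) lay downstream of the start. Between 200 and 101 bp upstream lay 40 sites (18.9%), against 288 autosomal ones (27.02%), and between 600 and 401 bp upstream 33 sites (15.6%), against 85 autosomal ones (7.97%). The difference in distance was not tested, since sites of 1 pair of libraries are no replicates. It was smaller among sites with 1 gene (medians of 276 bp on X and 243 bp on autosomes). Sites shared by several genes, fewer on X, went the other way (88 and 150 bp). Within X the median signal was highest between 400 and 201 bp upstream, with 51.3 over 59 sites, and lowest downstream of the start, with 34.5 over 15 sites.

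**Figure D4:**
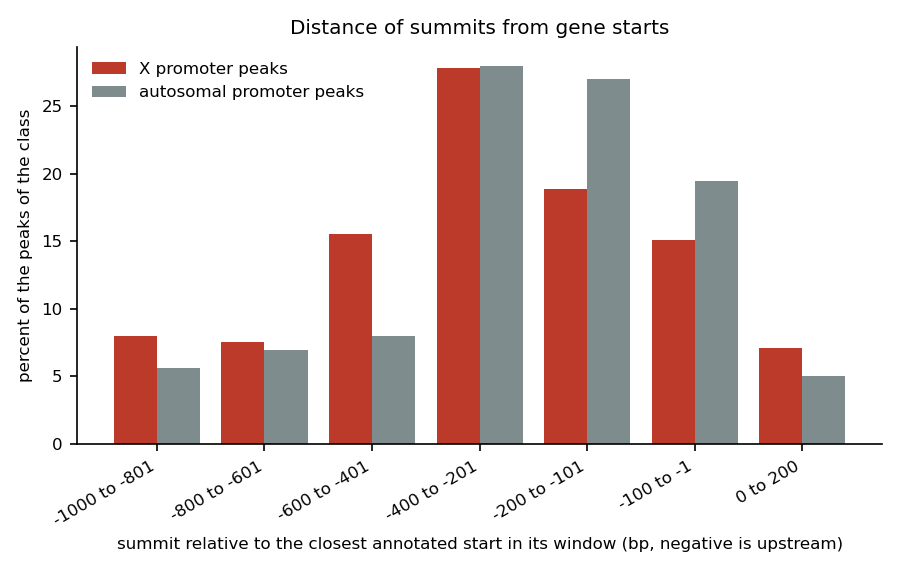
Percent of sites (vertical axis) by the position of the summit relative to the closest annotated start in its window (horizontal axis, bp, negative is upstream) for X promoter sites (red) and autosomal promoter sites (grey). Between 600 and 401 bp upstream the X sites stand at 15.6% and the autosomal ones at 7.97%, and between 200 and 101 bp at 18.9% and 27.02%.

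The limits of the window cut through a continuous range. Just inside the upstream limit lay mgrn-1 (992 bp upstream, signal 62.6), C16B8.3 (990 bp, 49.9) and fbxb-58 (989 bp, 268), and just outside it pqn-39 (1086 bp, 42.7), sur-5 (1135 bp, 34.8) and acl-4 (1144 bp, 31.4). Downstream of the start, egl-17 (195 bp, 44.1), tsp-21 (191 bp, 81.8) and C18A11.1 (175 bp, 28.8) were the last inside, and C35B8.3 (303 bp, 33.1) and unc-58 (466 bp, 34.9) the first outside. In all, 18 summits lay over the body of a coding gene, 14 of them in an exon (6.60%, against 6.94% of autosomal promoter sites).

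Few of the sites served more than 1 gene. Only 19 (8.96%) lay in the windows of several genes, 17 of them between divergent genes, against 389 autosomal promoter sites (36.5%), 366 of them divergent. X holds 15.4 coding genes per 100 kb, against 20.9 on autosomes, and 5.05% of its promoter window sequence is shared between genes, against 12.005%. The sites were shared 1.78 times as often as the window sequence on X and 3.04 times as often on autosomes. Whether the spacing of genes bears on the share of shared sites was not tested. The shared sites on X had a median signal of 39.2 and lay a median of 88 bp from the closest start, against 51.8 and 150 bp on autosomes. Sites with 1 gene had medians of 43.5 on X (193 sites) and 45.1 on autosomes (677 sites), with median distances of 276 and 243 bp. The strongest shared site was that of glit-1 and dnj-14 (114, with 65.0 in replicate 1 and 48.3 in replicate 2). One site, between dhs-25 on 1 side and D1005.10 and D1005.4 on the other, lay in the windows of 3 genes (51.4, with 25.2 and 25.5).

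Of transcription factor genes, those of the bZIP family had a site at each X-linked member. These are cebp-1 (393), atf-6 (63.2, with 27.3 in replicate 1 and 32.2 in replicate 2), a stress sensor of the endoplasmic reticulum, and atf-4 (29.96, with 16.9 and 11.7), a factor of the integrated stress response whose window also serves an unnamed coding gene. With 3 of 3 the list is too short to set beside the 8.42% of all genes, and autosomal bZIP genes had 8 of 26. The signal at cebp-1 was 13.1 times that at atf-4. Nuclear hormone receptor genes had 5 of 27 bound (18.5%, interval 8.18% to 36.7%), against 16 of 247 on autosomes (6.48%). The strongest were nhr-48 (83.9), nhr-35 (62.6) and nhr-32 (40.3). Other factor families (GATA, forkhead, bHLH and further zinc finger and named factors) had 6 of 42 (14.3%, interval 6.72% to 27.8%). Autosomes had 12 of 128 (9.38%). The strongest on X were mdl-1, elt-2 (63.7, with 31.9 and 29.6) and lin-14 (51.2, with 34.6 and 15.8). elt-2 codes for the GATA factor of the intestine, and lin-14 times early larval fates. Homeobox genes had none of 29 (interval up to 11.7%), against 1 of 72 on autosomes. The intervals of the nuclear hormone receptor, other factor and homeobox lists on X all include the 8.42% of all genes.

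The sex chromosome has genes that measure or adjust the X dose. Of 7 X-linked genes of sex determination and X signal elements, 1 had a site, sdc-2 (14.3%, interval 2.57% to 51.3%). That interval includes the 8.42% of all genes, and autosomal genes of this list had none of 11. The sdc-2 site had a signal of 67.0, with 31.5 in replicate 1 and 34.3 in replicate 2, and its summit lay 381 bp upstream at X:11522154-11522497. The others, xol-1, sex-1, fox-1, ceh-39, sdc-1 and tra-4, had none in the IDR-thresholded list.

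X carries few genes for making and folding proteins, and part of them had sites. Of 4 translation factor and aminoacyl-tRNA synthetase genes 3 were bound, namely eef-1A.2, pab-2 (82.7, with 52.7 and 30.7), a poly(A)-binding protein, and ife-2 (46.8, with 28.8 and 16.4), an eIF4E that binds mRNA caps. Autosomes had 23 of 74. Of the 2 ribosomal protein genes on X, rpl-11.2 had a site and rpl-25.1 had none, against 59 of 80 on autosomes. Lists of 4 and of 2 genes are too short to set beside the 8.42% of all genes. Chaperone, proteasome and ubiquitin genes had 4 of 12 (33.3%, interval 13.8% to 60.9%), against 48 of 140 on autosomes (34.3%) and 8.42% of all genes. Their strongest were hsp-3, dnj-14 and pdi-6 (105, with 56.4 and 45.1), a protein disulfide isomerase. The dnj-14 site is shared with glit-1 and lies nearer to it, 192 bp upstream of glit-1 and 339 bp upstream of dnj-14.

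Other genes of the secretory pathway, singled out after their values were seen, had sites as well, and no share of them is given for that reason. The promoter between trap-2, a translocon-associated protein, and ile-2, a cargo lectin, had 106 (69.4 in replicate 1 and 39.6 in replicate 2). uggt-1, which re-glucosylates unfolded glycoproteins, had 90.1 (50.1 and 40.7). Singled out in the same way, the mitochondrial genes sdha-1, a succinate dehydrogenase subunit, and asb-2, an ATP synthase subunit, had 85.7 (49.5 and 35.6) and 73.7 (40.6 and 32.9).

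Genes of the lysosome and of proton pumps had 5 of 19 bound (26.3%, interval 11.8% to 48.8%), against 13 of 76 on autosomes (17.1%) and 8.42% of all genes. They were led by epg-7 and by 2 subunits of the vacuolar proton pump, vha-12 (97.5, with 54.8 and 40.2) and vha-15 (59.9, with 33.2 and 25.7). Small RNA and RNA-binding genes had 2 of 8, against 22 of 76 on autosomes. They were puf-9 and ain-1, both among the 10 strongest sites. Cell cycle and replication genes had 3 of 7, against 27 of 149 on autosomes. The 3 were his-24, a linker histone (83.5, with 41.3 and 40.2), lin-15B (43.7, with 21.7 and 20.4) and cdk-4 (39.2), the G1 cyclin-dependent kinase. Lists of 8 and of 7 genes are too short to set beside the 8.42% of all genes. Kinase signalling genes had 2 of 24 (8.33%, against 8.42% of all genes), with 7 of 73 on autosomes. The 2 were kin-29, a salt-inducible kinase (110, with 81.5 in replicate 1 and 28.8 in replicate 2), and akt-2 (41.3). Small GTPases and their regulators had 1 of 15, rab-14 (6.67%, interval 1.19% to 29.8%, against 8.42% of all genes), with 12 of 65 on autosomes.

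Among families known from neurons and muscle, gap junction and ion channel genes had 1 of 63 (1.59%, interval 0.281% to 8.46%), against 2 of 169 on autosomes. That site, of glr-6, a glutamate receptor gene (50.01, with 32.6 and 18.1), is shared with the ATP synthase gene asg-2 and lies nearer to it, 185 bp upstream of asg-2 and 353 bp upstream of glr-6. Neuropeptide and insulin-like genes had 1 of 37 (2.70%), but that 1 was ins-39, the fourth strongest of the sites. The autosomes had 2 of 108. Of 16 X-linked genes named uncoordinated (unc) for their movement defects, only unc-115, an actin-binding LIM protein, had a site (55.03, with 31.8 and 28.2). That is 6.25%, against 8.42% of all genes and 14 of 78 on autosomes (17.9%). Muscle genes had 2 of 17, spc-1 and act-4, an actin (41.2, with 21.7 and 7.50), against 6 of 51 on autosomes (11.8% for both). Collagens had 1 of 32, col-185 (33.9), against 4 of 149 on autosomes. Vitellogenins had none of 5, against none of 1, and chemoreceptors none of 34, against 18 of 1331 (1.35%). C-type lectins had 1 of 3, clec-265 (31.4), against 8 of 237. Detoxification enzymes had 1 of 14 (7.14%), gst-42 (28.5), against 5 of 176. The intervals of these lists on X, from gap junction and ion channel genes to detoxification enzymes, all include the 8.42% of all genes.

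Transfer RNA genes lay near some summits. Within 200 bp of a tRNA gene were 11 sites (5.19%), against 11 autosomal promoter sites (1.03%) and 47 X sites outside promoters (19.7%). X holds 276 tRNA genes and all autosomes together 336. The strongest such site was that of sor-3 (94.6, with 69.7 in replicate 1 and 19.8 in replicate 2), whose summit lay 20 bp upstream of a tRNA gene on the minus strand at X:353255-353336. The site of egl-17, at the downstream limit, lay over a tRNA gene at X:489868-489939. Since these summits lie near both kinds of gene, the lists do not say which one the binding belongs to. The sites near any of the RNA genes counted (14 of 212, tRNA, snoRNA or microRNA) had a median signal of 41.1, and the others 43.4. One site in the window of C05G5.7 (43.5, with 22.1 in replicate 1 and 22.2 in replicate 2), singled out after its values were seen, had its summit at X:14744607, within the annotated gene of the let-7 microRNA on the minus strand (X:14743590-14745321).

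The base composition under the summits differed from that of promoters at large. The 200 bp windows had a median of 46.25% G and C bases (quartiles 41.4% and 51.5%), against 41.5% at autosomal promoter sites and 45.5% at X sites outside promoters. The 200 bp before all gene starts had 34.5% on X and 33.0% on autosomes, and the whole X chromosome 35.2%. The difference between X and autosomal promoter sites was thus wider than that between all X and autosomal starts. It bears on every share of sequence words given here, and its part in them was not tested.

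A panel of 12 words was searched for in both orientations in the window of 200 bp. The AP-1 element TGACTCA was found at 9 sites (4.25%, interval 2.25% to 7.87%), against 4.41% of autosomal promoter sites, 7.14% of X sites outside promoters, 3.30% of windows 500 bp to either side and 2.78% of the windows before all X-linked starts. After cebp-1 the sites were pdi-6 (105), C18B2.4 (70.2), F20D1.3 (69.9, with 47.0 in replicate 1 and 9.99 in replicate 2), lgl-1 (53.9, with 16.9 and 35.7), dyn-1 (39.5), clc-1 (37.5), cas-1 (31.1) and ZK899.1 (29.2). lgl-1 takes part in cell polarity, dyn-1 is dynamin, and clc-1 codes for a claudin-like protein. Of the 9 elements 6 lay within 50 bp of the summit. The CRE element TGACGTCA was found at 4 sites (1.89%, interval 0.736% to 4.75%), against 1.59% of autosomal promoter sites, 1.18% of the windows beside and 0.549% of those before X-linked starts. These 4 were the promoters of dhs-25 (51.4), memb-1 (42.4, with 25.1 and 18.1), a Golgi SNARE gene, rbg-1 with plp-2 (33.1), and C17G1.5 with C17G1.14 (30.2). The 13 sites with either element had a median signal of 42.4, close to that of all the sites. The palindrome of C/EBP factors, TTGCGCAA, was found at 3 sites (1.42%), against 0.476% before X-linked starts. These counts are small, and their intervals overlap those of the windows beside the sites.

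CTGCGTCTC and the GA repeat were commoner at the summits than beside them. CTGCGTCTC was found at 23 sites (10.8%, interval 7.34% to 15.8%), against 0.708% of the windows 500 bp to either side and 1.24% of those before all X-linked starts. The share was 14.1% at autosomal promoter sites and 8.82% at X sites outside promoters. Of 26 occurrences 22 lay within 50 bp of the summit, at a median of 27.5 bp. The sites with it had a median signal of 62.03 and those without it 42.4. It was held by 6 of the 25 strongest sites and 2 of the 25 weakest, the latter near the 10.8% of all the sites. The 6 were cebp-1, hsp-3, epn-1, F17E5.2, ZC506.1 and hst-2. GAGAGAGA was found at 17 sites (8.02%, interval 5.07% to 12.5%), against 9.01% of autosomal promoter sites, 0.708% of the windows beside and 2.56% of those before X-linked starts. Outside promoters GAGAGAGA was at 10.5% of X sites and 21.5% of autosomal ones. At the X promoter sites it was less centred: of 28 occurrences, overlapping ones included, 13 lay within 50 bp of the summit. The median distance was 51.5 bp. Both words stood together at 6 sites (median signal 60.95), CTGCGTCTC alone at 17 (70.2), GAGAGAGA alone at 11 (44.7) and neither at 178 (41.5). Most of the sites thus held neither word. The overlap of GAGAGAGA with GAGACGCAG, as in the dpy-22 promoter, counts for both.

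The other words differed less between the summits and the windows beside them, or were rarer at the summits. The E-box CACGTG was at 12 sites (5.66%), against 4.25% of the windows beside and 12.2% of the X sites outside promoters. The GATA element TGATAA was at 38 (17.9%), against 21.9% of the windows beside, and the sites with it had a median signal of 35.5, those without it 46.4. The elt-2 promoter was among them. The forkhead element TGTTTAC was at 8 (3.77%, against 3.07% beside), the heat shock element TTCNNGAA at 11 (5.19%, against 9.91%), CCAAT at 61 (28.8%, against 34.4%) and the SKN-1 core TGTCAT at 18 (8.49%, against 15.3%). The core of the MEX element, CGCAGGGAG, known from the sites where the dosage compensation complex is recruited, was at 1 site, that of R04E5.9 (99.99), against 7 of 238 X sites outside promoters (2.94%) and none of the 424 windows beside. A match describes letters only, and a window without one says nothing on the factor.

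**Figure D5:**
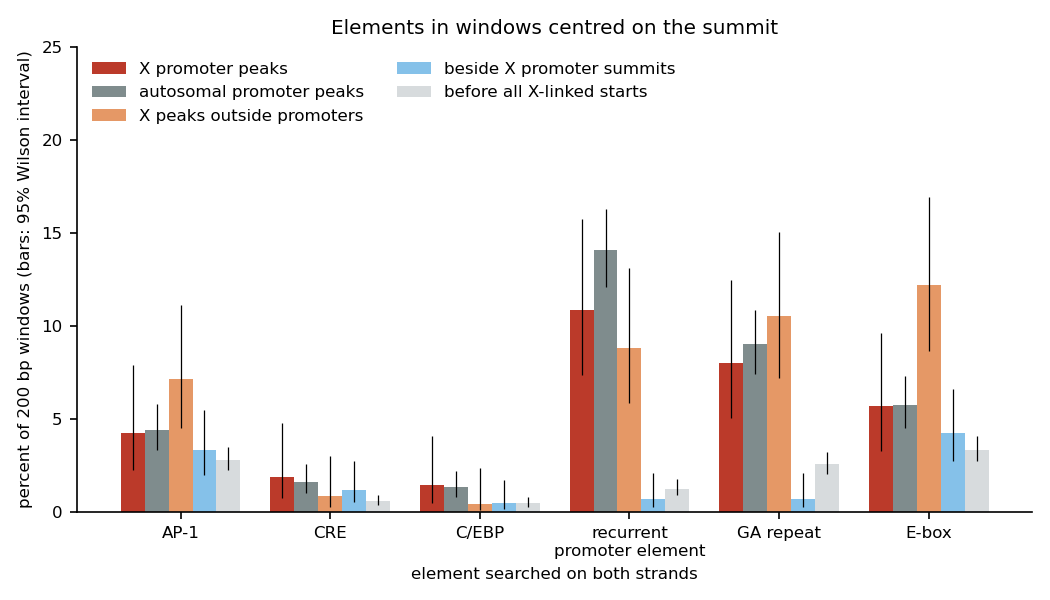
Percent of 200 bp windows (vertical axis) that hold each of 6 words on either strand, for X promoter sites, autosomal promoter sites, X sites outside promoters, windows 500 bp beside the X promoter summits and the 200 bp before all X-linked starts, with 95% Wilson intervals as black lines. The recurrent promoter element (CTGCGTCTC) stands at 10.8% and the GA repeat at 8.02% of X promoter sites, against 0.708% of the windows beside them for each.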

How the data were processed

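ChIP-seq of eGFP-tagged JUN-1 in whole L1 larvae was used from 2 biological replicates, with libraries of 150 to 350 bp per the labels. The authors deposited peak lists in ce10 and ce11: 1 per replicate and 1 pooled, each with background, and an IDR-thresholded list, per the deposited notes, which name 1 control alignment for both replicates. How reads were aligned, how peaks were called and scaled, and which IDR cutoff was used is not given in these sources. The deposited signal of each peak was the measure. The deposited −log10 q-values took 1 value in the IDR-thresholded list and ranked nothing. Depth per sample is unknown, so no counting error of a peak can be given.

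Summits were assigned to all Ensembl release 115 protein-coding genes (WBcel235, the assembly of ce11) whose window held them. A replicate's value is that of the overlapping peak (at least 1 bp) with the nearest summit. Sequences are those of the RefSeq copy. Python 3.11.15, pandas 2.3.3, numpy 2.4.6 and statsmodels 0.14.6 (Wilson intervals) were used, and assignment and word search were checked on simulated data. Sites, gene lists and words were chosen with earlier results of these data known, and the lists of secretory and mitochondrial genes after the bound genes were seen. Named genes are those of the 25 strongest sites, the 3 strongest of each list, sites with an AP-1 or CRE element, genes with 2 sites, sites at the window limits, the 3 sites that differ most in rank between replicates each way, and the 5 weakest. Genes outside this rule were chosen after their values were seen. Alternatives were other windows, starts, lists, overlaps and builds, and each replicate alone.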

Additional observations from a re-analysis of the deposited data

How the results depend on the processing

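Depth is unknown and only 1 group exists, so stability was judged by other windows, starts and lists. Of the 102 alternative values 76 were classed as close to those reported and 26 as moved. The limits differed between kinds of value, so this tally is no measure of stability. A median distance of 261 bp against 258 bp was classed as moved. Words at few sites were classed as close across wide changes. The MEX core was at 1 site as reported and at 3 in a 400 bp window. The CRE element was at 4 of 212 sites as reported and at 1 of 101 in the stronger 50% of the list. Keeping that 50% lowers counts of sites and genes by construction. The stronger 50% of the list left 101 sites and 109 genes, 9 shared sites, a median distance of 263 bp and 9 sites with the GATA element. The median signal of X promoter sites minus that of autosomal promoter sites was -3.56 as reported and ran from -1.04 to 0.391 without 1 replicate. In the stronger 50% it was 2.14, but that list is cut on the same signal, so this value cannot decide a direction. Minus that of X sites outside promoters, the median signal of X promoter sites was -1.87 as reported. It was 1.38 with a narrower promoter window (500 bp upstream), -5.55 with a wider one and -5.24 from every transcript start. In the stronger 50% it was -6.12, and without 1 replicate -0.701 to 0.518. Values without 1 replicate come from the strongest 2305 peaks of the other replicate's list. They are on the scale of that list, so their sizes do not compare with those reported. The median distance (258 bp) was 193 bp in the narrower window, 318 bp in the wider and 259 to 261 bp without 1 replicate, and 54 sites were shared in the wider window. Word counts followed the width searched: in 400 bp the GA repeat was at 27 sites, GATA at 67, the heat shock element at 27, CCAAT at 118 and the SKN-1 core at 40, and in 100 bp the GA repeat was at 6, GATA at 22 and CCAAT at 29. No paired analysis was possible because there is 1 group.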
